A study of Manis javanica with 3 samples.

Results

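Mucins, trefoil factors and gastrokines make up the secreted and membrane-bound protection of the gut lining and of the glands that drain into it. The genes described here were found in the annotation of Manis javanica (Malayan pangolin) as those whose closest protein in the NR database carries the text "mucin-", "trefoil factor" or "gastrokine"; the rule uses names and no expression value. The rule found 33 genes. Of these, 9 hold the text only inside the name of another protein, such as the mucin-like hormone receptors of leukocytes, and 24 are named as members of the family, of which 23 are in the expression tables among 24220 genes. The 23 measured genes comprise 2 trefoil factors, 3 gastrokines, 8 gel-forming mucins and 10 cell-surface mucins, and a further gene named as a submaxillary mucin (gene21525) was not analysed here. No gene of the annotation is named trefoil factor 3, and TFF3 was not analysed here.

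The 3 tissues, labelled small intestine, salivary glands and liver, were taken from 1 adult female, a wild individual that died during rescue and had ants in its stomach. There was 1 library per tissue, so none of the differences has a replicate check, and what belongs to the tissue cannot be told apart from what belongs to this animal, this dissection or this library. The libraries held 10158924, 8318686 and 14568778 counts in the order small intestine, salivary glands and liver, and a count of 0 allows up to 0.295, 0.361 and 0.206 CPM (counts divided by the library total, on a common scale). Levels are given as FPKM, in which fragments are divided by transcript length and by library depth. Expressed means above 1 FPKM here, as held for 59.4%, 56.3% and 57.0% of all genes in the same order.

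Gel-forming mucins are very large glycoproteins that mucous cells store in granules and release, and that swell into the mucus layer. In mammals MUC5AC is the mucin of the gastric surface, MUC6 that of the deeper gastric glands, MUC2 that of intestinal goblet cells, and MUC5B and MUC19 are known from salivary glands. Trefoil factors are small, stable peptides released together with mucins, TFF1 with MUC5AC at the gastric surface and TFF2 with MUC6 in the glands, while TFF3 is the peptide of goblet cells. Gastrokines are secreted by the surface mucous cells of the stomach, and GKN2 forms a complex with TFF1. Cell-surface mucins such as MUC1 and MUC13 remain anchored in the apical membrane of epithelial cells.

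Because these genes mark particular mucous cells, each label was compared with marker lists of the cell types it could hold. In the library labelled small intestine, 8 of 9 genes of gastric surface mucous cells, 10 of 11 of gastric mucous glands and 9 of 11 of gastric chief and parietal cells passed 1 FPKM. Of all genes 59.4% passed in that library. Of the first list 4 genes are members of the family, and of the second 2. The 4 annotated gastricsin genes stand in both the second and the last list. The second list names 6 genes, matched to 11 annotated genes because gastricsin and A4GNT are annotated more than once. PSCA, CAPN8 and SULT1C2 of the first list were not matched to any gene. Outside the family, CLDN18 (claudin-18, a tight junction protein of gastric epithelium) had an FPKM of 195, annexin A10 63.5 and 44.4 for its 2 annotated genes, pepsin A 94138 and ATP4A, the catalytic subunit of the gastric proton pump, 1073. CAPN9 of the surface list had no count in any library, so whether it could be read is not known. Among the chief and parietal genes, LIPF (gastric lipase) had 0.539 FPKM from 5 counts and GIF (gastric intrinsic factor) 0.872 from 9. AQP5, a water channel of the gland list, was lower there than in the salivary gland library, with 2.29 FPKM in small intestine, 94.3 in salivary glands and 24.7 in liver. Among the goblet cell genes 4 of 10 passed, led by AGR2, a disulfide isomerase needed for mucin folding, with 573. ATOH1, the transcription factor that sets the secretory lineage, had no count in any library, so whether it could be read is not known. TFF3, RETNLB and ITLN1 of the goblet list were not matched to any gene. Of the 12 enterocyte genes 1 passed, villin-1, with 24.0 FPKM in small intestine, 25.7 in salivary glands and 21.2 in liver. FABP1, FABP2, LCT, MEP1A and CDX1 had no count in the small intestine library, and sucrase-isomaltase had 2 counts. FABP1, the fatty acid-binding protein of liver as well as gut, had no count in the liver library either, and FABP2, LCT and MEP1A had none in any library, so whether these 4 genes could be read at all is not known. Of the enterocyte genes, 5 had at least 10 counts in the small intestine or the liver library. By a log2 fold of at least 1, 3 of these were lower in small intestine and 1 was higher. APOA4 had 17 counts in small intestine against 1695 in liver, ANPEP 26 against 167 and ALPI 4 against 306. SLC15A1 went the other way, with 14 against 4. CDX2 and SLC5A1 were not matched to any gene. The summed FPKM of the enterocyte list was 26.2 there, 27.4 in salivary glands and 47.8 in liver, against 1980, 1.31 and 0.687 for the gastric surface list. Most of the 1980 came from members of the family, TFF1 with 1148, GKN1 with 262, GKN2 with 230 and MUC5AC with 14.8. Apart from villin-1, each of the 12 matched enterocyte genes was below 1 FPKM in the library labelled small intestine, and the values below are named by the labels. Smooth muscle genes were high in the same library, at 638 for MYH11, 754 for DES and 1023 for TAGLN.

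Of the 10 genes matched to the salivary list 3 passed in the salivary gland library, against 4 in small intestine and 3 in liver. Of the 10 genes, 4 are members of the family. The submaxillary mucin-like gene was not part of this list. It had 15.2 FPKM in small intestine, 5740 in salivary glands and 0.155 in liver. In the salivary gland library LTF (lactotransferrin) with an FPKM of 59.1 and PIP (prolactin-inducible protein) with 28.0 led the salivary list, while LPO (lactoperoxidase) had 6 counts and BPIFA2 2. A DMBT1 gene of the same list (gene3018) went the other way, with 53.1 FPKM in small intestine, 0.329 in salivary glands and 4.79 in liver. No gene was matched to MUC7, AMY1A, SMR3A, ZG16B, STATH or HTN3, so these defining genes could not be read. All 10 hepatocyte genes were expressed in the liver library, with 25755 and 6882 for the 2 haptoglobin genes. Of these 10 genes, 5 also passed in small intestine, led by ALB (serum albumin) with 89.1. In salivary glands 4 passed, led by SERPINA1 (alpha-1-antitrypsin-like) with 120. Of the 9 pancreatic genes 3 passed in small intestine, 1 in salivary glands and 2 in liver, with the highest value in the liver library. In these bulk libraries fewer cells of a type and less RNA per cell cannot be told apart.

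**Figure D1:**
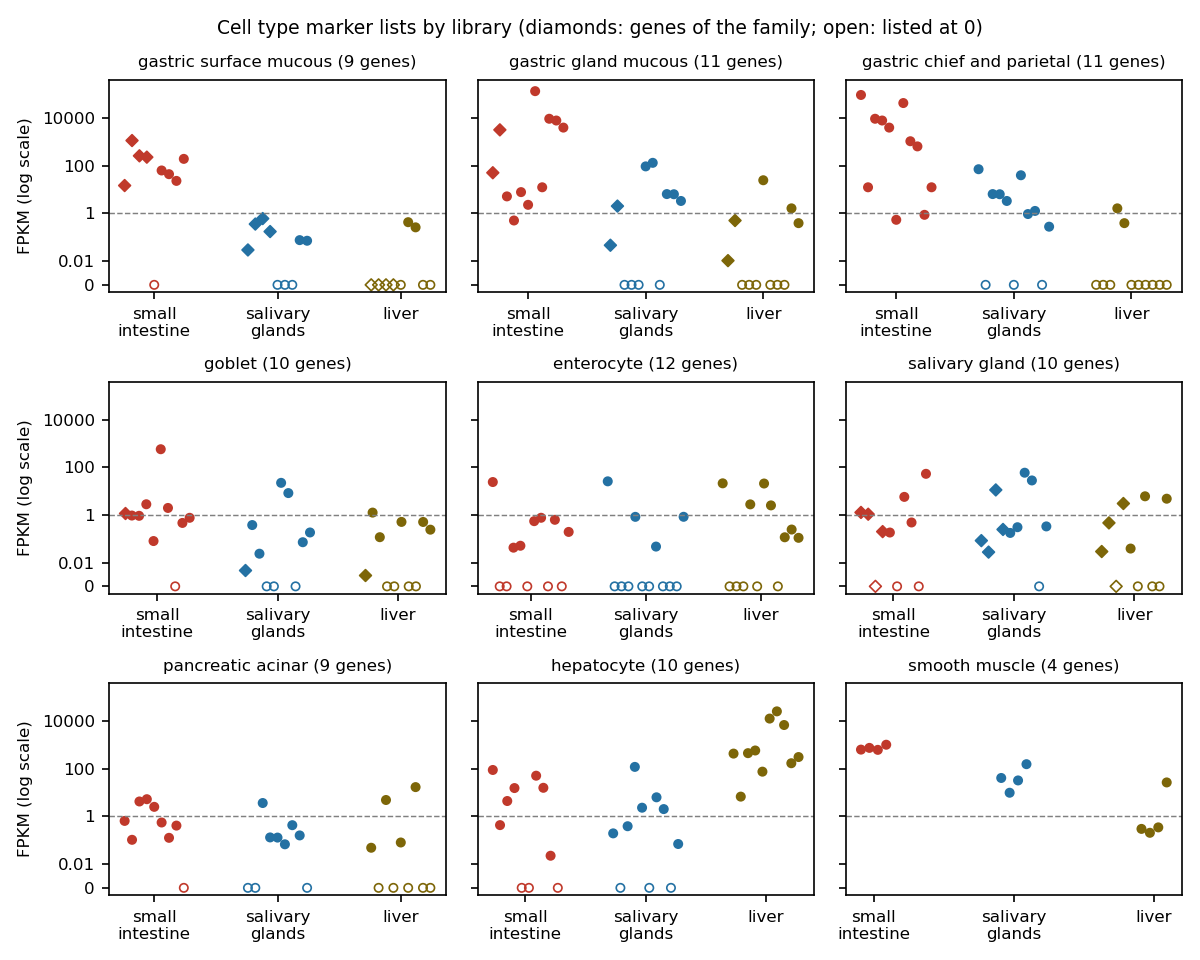
FPKM (log scale) of the genes of 9 cell type lists in the 3 libraries; each point is 1 gene in 1 library, diamonds are genes of the mucin, trefoil factor and gastrokine family, open symbols are genes listed at 0, and the dashed line is an FPKM of 1. The 3 gastric lists stand high in the small intestine library, where 1 of 12 enterocyte genes lies above the line, and all 10 hepatocyte genes lie above it in the liver library.

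Of the 23 members, 14 were expressed in small intestine, 7 in salivary glands and 2 in liver. Of all genes 59.4%, 56.3% and 57.0% were expressed in the same order. In all, 18 passed in at least 1 library, 5 in none, and 1, the mucin-1-like gene, in all 3. Members above 100 FPKM numbered 5 in small intestine (TFF2, TFF1, GKN1, GKN2 and MUC1), 1 in salivary glands (the submaxillary mucin-like gene) and 0 in liver. Together the members held 0.714%, 0.967% and 0.00110% of the summed FPKM in small intestine, salivary glands and liver. As a share of counts, which long transcripts raise, the same values were 0.278%, 2.47% and 0.00369%. In small intestine the median FPKM was 1.19 over the members and 2.16 over all genes, so the family sum there came from a few members and not from the family at large.

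**Figure D2:**
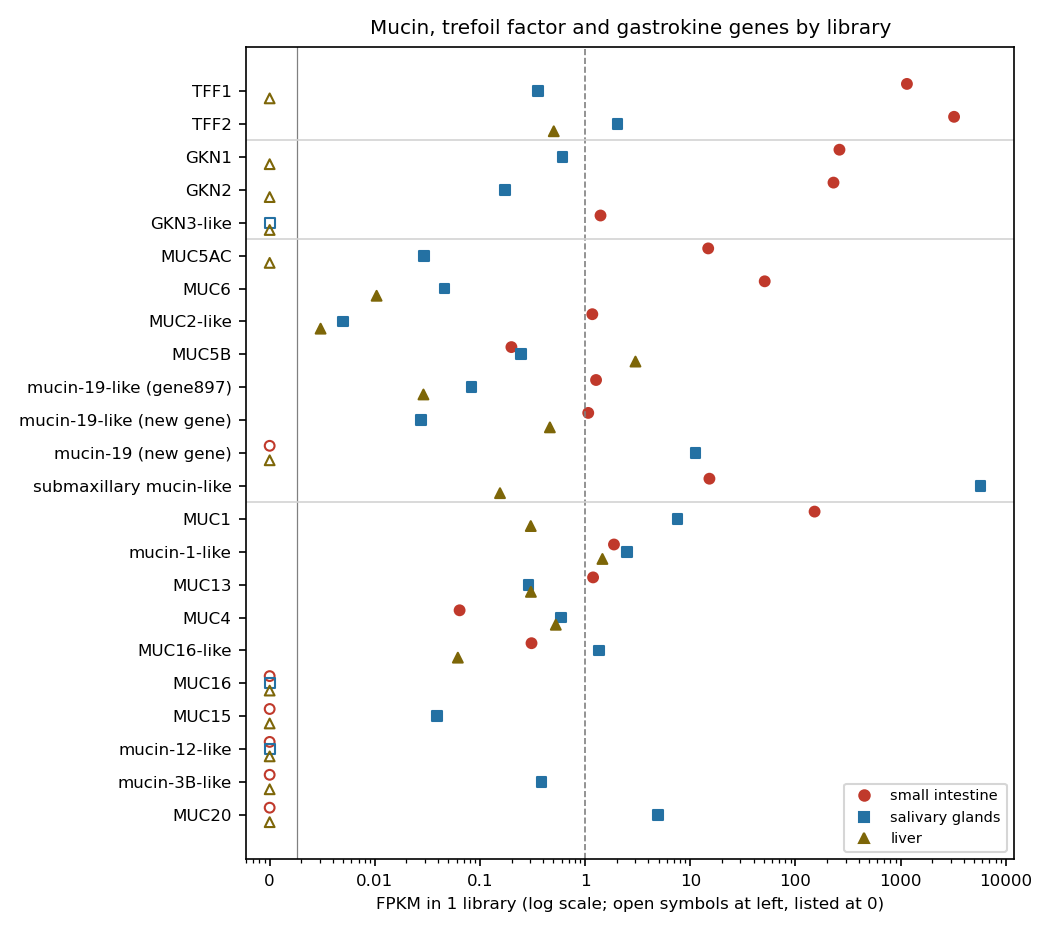
FPKM (log scale) of the 23 members, ordered by role from trefoil factors at the top to cell-surface mucins at the bottom; circles are the small intestine library, squares the salivary gland library and triangles the liver library, open symbols at the left are genes listed at 0, and the dashed line is an FPKM of 1. TFF2 and TFF1 lie above 1000 in the small intestine library, and the submaxillary mucin-like gene alone does so in the salivary gland library.

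Both measured trefoil factors were abundant in the small intestine library and had at most 13 counts in either of the others. TFF2 (gene876, scaffold NW_016527708.1 from base 103134 to 106098) had 3223 FPKM in small intestine, 2.03 in salivary glands and 0.503 in liver, from 15917, 13 and 5 counts. It ranked 16 among all genes of the small intestine library. Counts were compared between libraries after scaling by TMM, a factor that makes most genes equal, and the log2 fold of TFF2 was 10.43 against the salivary gland library (95% exact interval for counting error 9.65 to 11.34) and 12.40 against the liver library (11.17 to 14.02).

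TFF1 (gene875, the same scaffold from base 90274 to 93704) had 1148, 0.357 and 0 FPKM in small intestine, salivary glands and liver, from 2481, 1 and 0 counts, and ranked 45 in the first. The single salivary count gave a log2 ratio of 11.45 with an interval of 8.97 to 16.75. Against the liver library, where 3 counts stand for the limit of a count of 0, TFF1 was at least 1400-fold higher. The small intestine library therefore held the transcripts of TFF1 and TFF2 at high levels, and TFF2 made up 73.7% of their summed FPKM.

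In the files TFF1 and TFF2 lie next to each other, 9429 bases apart, and the gene listed after TFF2 is the lipid exporter ABCG1, 41922 bases further on. In the RefSeq gene order of another M. javanica assembly, MJ_LKY, TFF3 stands between TFF2 and ABCG1. No gene is listed in that interval in the files used here, so the goblet cell peptide could not be set beside TFF1 and TFF2.

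The gastrokines had the same pattern at lower levels. GKN1 (gene5871), which supports the gastric surface epithelium, had 262 FPKM in small intestine, 0.608 in salivary glands and 0 in liver, from 2024, 4 and 0 counts. Its log2 fold against the salivary gland library was 9.15 (7.79 to 11.03), and against the liver library it was at least 1142-fold higher. GKN2 (gene5870), the partner of TFF1, had 230, 0.173 and 0 FPKM from 1093, 1 and 0 counts, which gave a log2 ratio of 10.26 (7.78 to 15.57) against the salivary gland library and at least a 617-fold higher level than in the liver library. A gastrokine-3-like gene (gene5869) had 4 counts and 1.40 FPKM in the small intestine library and no count elsewhere. Thus GKN1 and GKN2 were abundant in the small intestine library, and gene5869 was near the limit of detection.

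The 3 gastrokine genes follow each other on scaffold NW_016530649.1 in the order gastrokine-3-like, GKN2 and GKN1, with 3137 and 18941 bases between them. The order of GKN1 and GKN2 by level depends on the transcript length used. GKN1 is listed with a length of 4754 bases, and its fragments per unit of FPKM and kilobase were 1.62, where the middle 90% of genes with at least 50 counts lay between 3.90 and 10.1. By counts per listed kilobase GKN2 had 1440 and GKN1 426, which put GKN2 in place 3 and GKN1 in place 6 among the members, against places 4 and 3 by FPKM. Both scales put TFF2 at the top, followed by TFF1.

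Among the gel-forming mucins, the gastric mucins MUC6 and MUC5AC were highest in the small intestine library, where the intestinal mucin MUC2 was lower than both. A submaxillary mucin led this group in the salivary gland library. In small intestine its 15.2 FPKM stood just above the 14.8 of MUC5AC. By counts per listed kilobase it was below MUC5AC there, with 60.6 against 139. MUC6 (gene20488, scaffold NW_016547477.1 from base 25461 to 50866) had 51.0 FPKM in small intestine, 0.0460 in salivary glands and 0.0104 in liver, from 2598, 4 and 1 counts. Its log2 ratio was 9.51 (8.15 to 11.39) against the salivary gland library and 12.10 (9.62 to 17.41) against the liver library. MUC5AC (gene1604, scaffold NW_016528072.1 from base 199766 to 229574) had 14.8, 0.0292 and 0 FPKM, from 1551, 4 and 0 counts. Its log2 fold was 8.77 (7.41 to 10.65) against the salivary gland library, and it was at least 875-fold higher than in the liver library. Both gastric mucins were thus read almost wholly in the small intestine library, with at most 4 counts in either of the others.

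The MUC2-like gene (gene20489), the next gene after MUC6 on the same scaffold at 31017 bases, had 1.17 FPKM in small intestine, 0.00495 in salivary glands and 0.00305 in liver, from 177, 1 and 1 counts. Its log2 ratio was 7.64 (5.14 to 12.95) against the salivary gland and 8.23 (5.73 to 13.54) against the liver library. It was therefore read almost wholly in the small intestine library, at a level per length below that of MUC6 and MUC5AC. Other goblet cell genes there were CLCA1 with an FPKM of 0.916, FCGBP with 0.941 and ZG16, a lectin of goblet cell granules, with 2.80 from 10 counts. FCGBP was higher in liver, with 1.25. AGR2 of the same list was far higher in small intestine, with 573. SPDEF, an Ets transcription factor, had 1.96 FPKM in small intestine, 8.25 in salivary glands and 0 in liver.

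MUC5B (gene1603) is the neighbour of MUC5AC, 14528 bases away, and had the reverse pattern. Its level was 0.199 FPKM in small intestine, 0.245 in salivary glands and 3.01 in liver, from 10, 19 and 386 counts. The log2 fold was -4.51 (-5.58 to -3.62) for the small intestine over the liver library and -3.75 (-4.50 to -3.09) for the salivary glands over the liver library. Between the small intestine and the salivary gland library the log2 fold of -0.76 (-2.02 to 0.42) did not reach the threshold. MUC5B was thus highest in the liver library and the leading member there, with 82.0% of the FPKM of the gel-forming group. In the MJ_LKY gene order MUC5B, MUC5AC, MUC2 and MUC6 stand in a row, and the files hold the first pair and the second pair on different scaffolds.

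The submaxillary mucin-like gene (gene23163, scaffold NW_016556178.1 from base 888 to 21127), named after the mucin of the submaxillary gland in pig and cattle, had 15.2 FPKM in small intestine, 5740 in salivary glands and 0.155 in liver, from 333, 204968 and 9 counts. It took 2.46% of the counts of the salivary gland library and ranked 9 there by FPKM. The log2 fold was -9.10 (-9.26 to -8.94) for the small intestine over the salivary glands and 15.07 (14.14 to 16.19) for the salivary glands over the liver. This single gene held 99.8% of the FPKM of the gel-forming mucins in the salivary gland library, and it had the highest FPKM of any member in any library.

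A further 3 genes are named after MUC19, the salivary gel-forming mucin. The new gene Manis_javanica_newGene_13638, joined by the authors from the aligned reads and named mucin-19, had an FPKM of 11.2 in the salivary gland library from 109 counts and none in the others, at least 32.3-fold higher than in the small intestine and 54.7-fold higher than in the liver library. The new gene Manis_javanica_newGene_8563 had 1.07, 0.0274 and 0.462 FPKM in small intestine, salivary glands and liver, from 31, 1 and 27 counts. Its log2 ratio was 5.12 (2.54 to 10.47) for the small intestine over the salivary glands, and its log2 fold of 0.96 (0.17 to 1.76) over the liver did not reach the threshold. For gene897 the FPKM was 1.27, 0.0832 and 0.0290, from 120, 11 and 5 counts, with a log2 fold of 3.62 (2.73 to 4.66) between small intestine and salivary glands. The Swiss-Prot entry of gene897 names an armadillo repeat protein and so does the gene beside it, so the identity of gene897 as a mucin is uncertain. The 3 genes grouped by this name did not move together: 1 was read in the salivary gland library alone, and the other 2 were lower there than in the small intestine library. Whether the submaxillary mucin-like gene is also a MUC19 gene was not tested, so these values do not give the level of MUC19 in the salivary gland library.

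Among the cell-surface mucins MUC1 was the most abundant. MUC1 (gene18201, scaffold NW_016542988.1 from base 430676 to 434844), found on most glandular epithelia, had 152 FPKM in small intestine, 7.57 in salivary glands and 0.304 in liver, from 1822, 115 and 7 counts. Its log2 fold was 4.15 (3.88 to 4.44) for the small intestine over the salivary glands, 8.78 (7.74 to 10.10) for the small intestine over the liver and 4.63 (3.54 to 5.98) for the salivary glands over the liver. It held 97.8% of the FPKM of the cell-surface mucins in the small intestine library. MUC1 was thus expressed in both mucin-rich libraries and was higher in that of the small intestine.

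MUC13 (gene20805), a membrane mucin of intestinal enterocytes and goblet cells, was low in all 3 libraries, with 1.19 FPKM in small intestine, 0.289 in salivary glands and 0.305 in liver, from 31, 9 and 12 counts. Its log2 fold was 1.95 (0.85 to 3.21) over the salivary glands and 2.13 (1.13 to 3.23) over the liver. MUC1 was therefore the leading membrane mucin of the small intestine library and MUC13 was close to the expression threshold.

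MUC20 and the MUC16-like gene were highest in the salivary gland library. MUC20 (gene17246) had an FPKM of 4.90 there from 113 counts and no count in the others, at least 33.5-fold higher than in the small intestine and 56.7-fold higher than in the liver library. The MUC16-like gene (gene15803), related to the large ocular and genital tract mucin CA125, had 0.309, 1.35 and 0.0616 FPKM in small intestine, salivary glands and liver, from 25, 146 and 10 counts, a log2 fold of 4.46 (3.54 to 5.55) for the salivary glands over the liver and -2.38 (-3.05 to -1.76) for the small intestine over the salivary glands. MUC4 (gene19733) had 0.0640, 0.587 and 0.526 FPKM, from 3, 34 and 44 counts. It was lower in the small intestine library than in both others, with log2 ratios of -3.33 (-5.68 to -1.66) and -3.12 (-5.45 to -1.47), and its log2 fold of 0.22 (-0.47 to 0.90) between salivary glands and liver did not reach the threshold.

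The mucin-1-like gene (gene15676) had similar values throughout, with 1.88, 2.49 and 1.46 FPKM from 21, 32 and 31 counts and log2 folds between -0.44 and 0.64. Its TrEMBL entry names a formin-like protein, so its identity as a mucin is uncertain. The remaining cell-surface mucins had under 10 counts in every library. MUC15 (gene13357) had 3 counts and the mucin-3B-like gene (gene734) 4, all in the salivary gland library, and MUC16 (gene15804) and the mucin-12-like gene (gene735) had none in any. MUC15 overlaps another gene, and the MUC16-like and MUC16 genes lie 352 bases apart. Reads on repeats shared between mucins could have been split or dropped in the counting, which affects all large mucins named here.

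A gene was called between 2 libraries when the log2 fold of its TMM-scaled counts was at least 1 in size, among genes with at least 10 counts in 1 of the pair. Of the 23 members, 18 passed this filter between small intestine and salivary glands, and 11 were higher and 5 lower in the small intestine library. Of all 16519 genes tested, 20.6% were higher and 16.9% lower. Between small intestine and liver 16 members passed, with 12 higher and 2 lower, against 24.2% and 24.0% of 17399 genes. Between salivary glands and liver 12 members passed, with 7 higher and 2 lower, against 22.9% and 24.9% of 17162 genes. The median log2 fold of the members that passed was 3.89, 7.10 and 1.85 in the same order, with genes at 0 set at their bound, where the median of all genes tested was -0.02, -0.08 and -0.07. These counts describe the members that passed: a member read in 1 library alone could pass only there and had to differ. Few members had at least 10 counts in both libraries of a pair, and of these 3 were higher and 2 lower between small intestine and salivary glands, 2 higher and 1 lower between small intestine and liver, and 1 higher and 1 lower between salivary glands and liver.

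**Figure D3:**
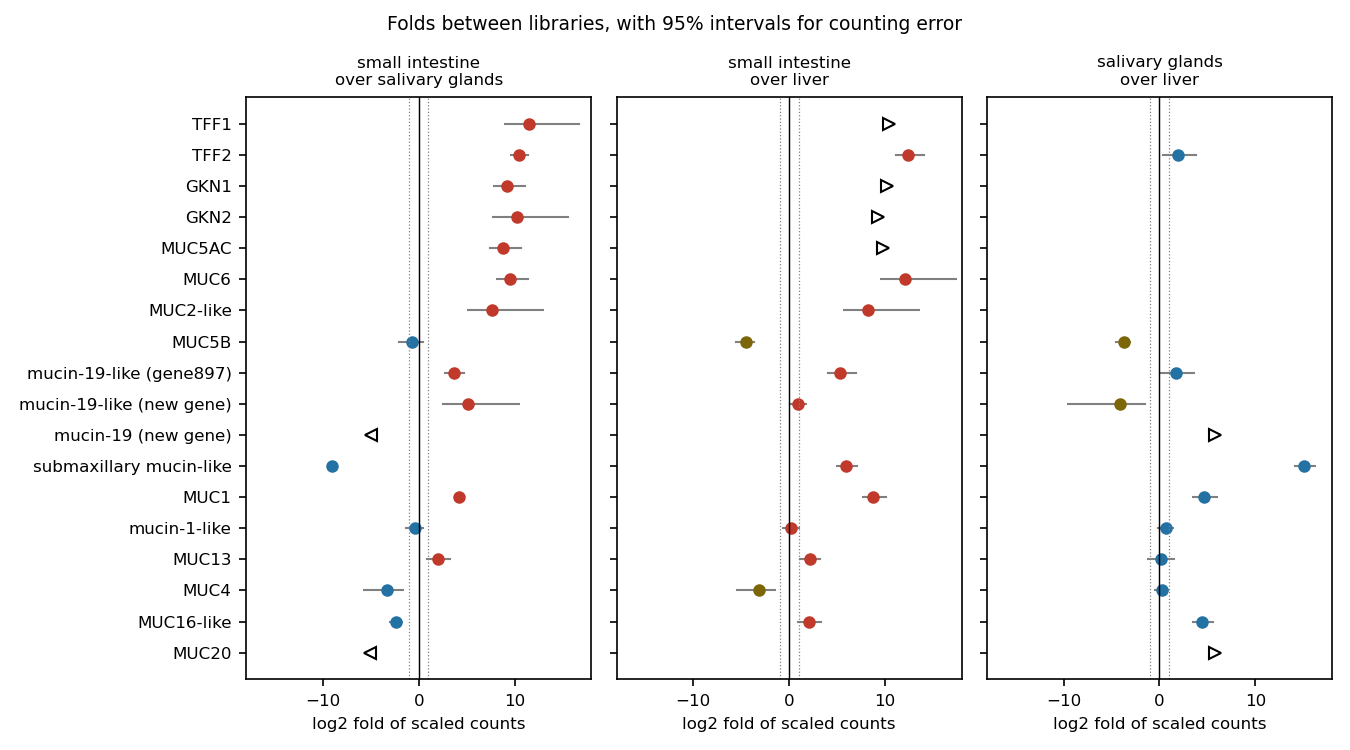
Log2 fold of TMM-scaled counts of the 18 members with at least 10 counts in 1 library, for the 3 pairs of libraries; points are folds coloured by the library in which the gene is higher, grey lines are 95% exact intervals for counting error only, open triangles are bounds against a count of 0, and dotted lines mark a log2 fold of 1 in size. TFF1, TFF2, GKN1, GKN2, MUC5AC and MUC6 stand to the right in both panels of the small intestine, and the submaxillary mucin-like gene stands at -9.10 in the first panel and at 15.07 in the last.

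Low salivary values of the members highest in the small intestine library were set beside those of other genes. The 7 genes outside the family above 1000 FPKM in small intestine and below 1 in liver, pepsin A, BPIFB1 and CHIA among them, had in the salivary gland library between 0.0687 and 0.0977% of their small intestine FPKM, with a median of 0.0830%. The same share was 0.0630% for TFF2, 0.0754% for GKN2 and 0.0902% for MUC6, and 0.0311% for TFF1, which rests on 1 count. It was 0.198% for MUC5AC, 0.232% for GKN1 and 0.423% for the MUC2-like gene, from 4, 4 and 1 salivary counts. MUC1 had 4.98%, apart from all of these. In the other direction, the 3 genes outside the family above 1000 FPKM in salivary glands and below 1 in liver had between 0.157 and 0.182% of it in the small intestine library, and the submaxillary mucin-like gene had 0.265%. The part of reads carried between libraries in these low values was not tested.

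**Figure D4:**
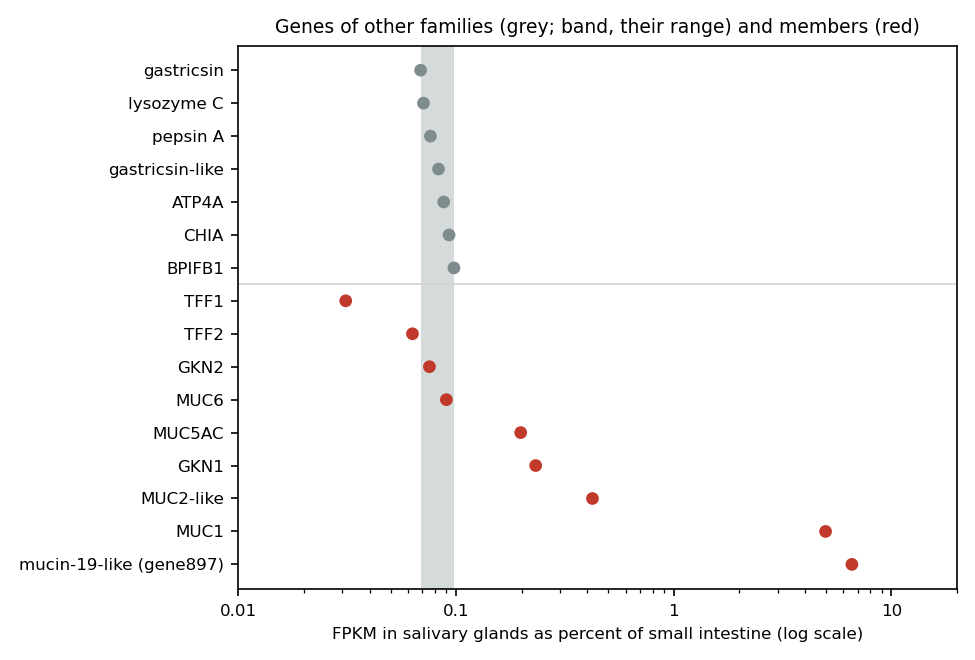
FPKM in the salivary gland library as a percent of that in the small intestine library (log scale), for 7 genes outside the family (grey, with a band over their range of 0.0687 to 0.0977%) and for the members with at least 100 small intestine counts other than the submaxillary mucin-like gene (red). TFF2, GKN2 and MUC6 lie in or beside the band, and MUC1 and the mucin-19-like gene897 lie far to its right; the points of TFF1, GKN2 and the MUC2-like gene rest on 1 salivary count each.

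Mucins need a large set of enzymes and helpers: GalNAc transferases that start the sugar chains, enzymes that extend and cap them, and proteins of the endoplasmic reticulum that fold the core and ready the cell for secretion. Of 41 such genes listed, 37 were found, as 40 annotated genes, none of them a member. Of these 40 genes, 30 were expressed in small intestine, 26 in salivary glands and 20 in liver, against 59.4%, 56.3% and 57.0% of all genes. Between small intestine and salivary glands 37 passed the count filter, with 14 higher and 10 lower in the small intestine library and a median log2 fold of 0.05, where 20.6% and 16.9% of all genes tested were so. Between small intestine and liver 21 of 36 were higher and 6 lower, with a median of 2.46, against 24.2% and 24.0% of all genes. Between salivary glands and liver 14 of 33 were higher and 8 lower, with a median of 0.52, against 22.9% and 24.9% of all genes.

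Of the 4 listed sialyltransferases, which cap mucin sugars, ST6GALNAC1 and ST6GALNAC2 were called between the small intestine and the salivary gland library, in opposite directions. ST6GALNAC1 had 0.318 FPKM in small intestine, 55.5 in salivary glands and 0 in liver, from 12, 2414 and 0 counts, while the related enzyme ST6GALNAC2 had 93.1, 15.0 and 15.3, from 2197, 412 and 590. The log2 fold of the small intestine over the salivary glands was -7.48 for ST6GALNAC1 and 2.58 for ST6GALNAC2. It was 0.45 for ST3GAL1 and 0.81 for ST3GAL2, which did not reach the threshold. The highest salivary values were those of XBP1, a factor of the secretory stress response, with 159 FPKM in small intestine, 1640 in salivary glands and 1258 in liver, and CREB3L1, with 60.5, 338 and 4.43. AGR2, which was highest in the small intestine library, had 573, 22.2 and 0.508.

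Among the GalNAc transferases, GALNT5 was higher in the salivary gland library, with 0.492 FPKM in small intestine, 8.01 in salivary glands and 0.00912 in liver, and GALNT12 in the small intestine library, with 18.6, 1.61 and 2.99. A4GNT, which adds the terminal sugar that marks MUC6 of gastric glands, is annotated 3 times, and these genes had 46, 12 and 2 counts in the small intestine library and none in the others. Their FPKM values were 7.84, 5.18 and 0.504. GCNT3, a branching enzyme of mucous tissues, likewise had 46 counts and 2.63 FPKM in the small intestine library and no count elsewhere.

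**Figure D5:**
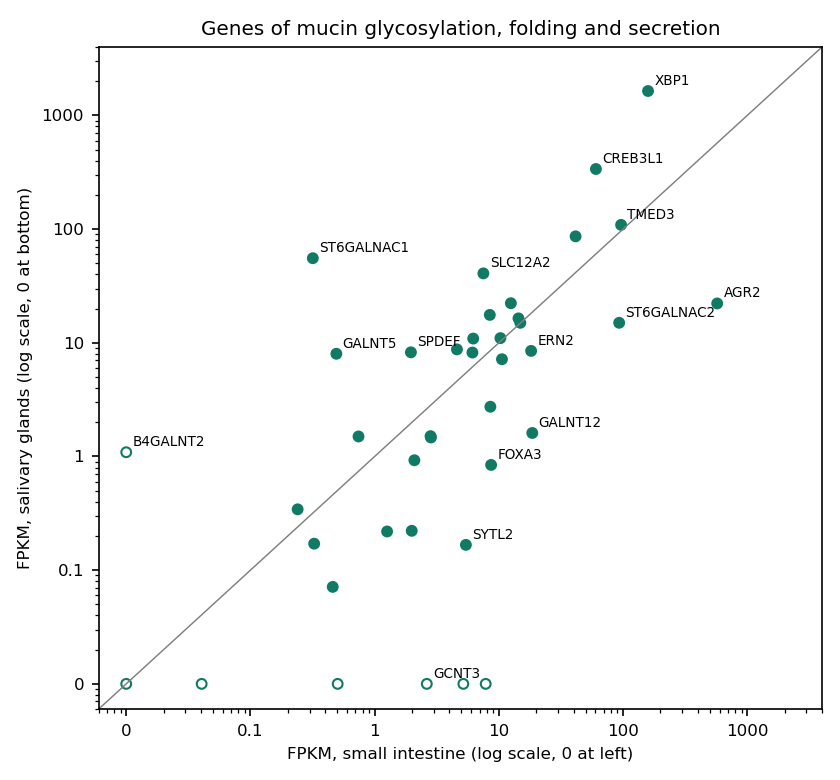
FPKM in the small intestine library against FPKM in the salivary gland library (both on log scales) for the 40 genes of mucin glycosylation, folding and secretion; each point is 1 gene, open points are listed at 0 in 1 or both libraries, and the line marks equal values. ST6GALNAC1 lies far above the line, and AGR2, ST6GALNAC2, GALNT12 and SYTL2 lie below it.

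For the leading member of each library, the genes outside the family with the most similar FPKM over the 3 libraries were found by distance in log2 (FPKM + 1). With 3 libraries many genes can share such a profile, so the distances are a description. Nearest to TFF2 were lysozyme C (gene22777), with 3582 FPKM in small intestine, 2.54 in salivary glands and 0.198 in liver and a distance of 0.42, a gastricsin-like gene (gene26766) at 0.62 and ATP4A at 1.81, followed by a further gastricsin-like gene and by gastricsin at 2.11. Nearest to the submaxillary mucin-like gene were genes of secreted carrier proteins, an odorant-binding protein-like new gene, with 11.8, 7480 and 0, at a distance of 0.55 and a new gene named allergen Bos d 2 at 0.57, and then beta-defensin 1 at 3.38, gene21524, which carries no annotation, at 3.67 and a latherin-like gene at 4.48. Around MUC5B the 5 nearest genes lay within 0.15.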

How the data were processed

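Paired reads were obtained on an Illumina HiSeq instrument from 3 tissues of 1 animal. The authors aligned cleaned reads to the M. javanica genome with TopHat2 and joined unannotated reads into new genes with Cufflinks; the genome build is not given in the sources used here. The deposited counts are whole fragments per gene and were not scaled by the authors. The deposited FPKM values were computed by the authors from fragments, transcript length and mapped fragments. A deposited score, the count times a library factor, was not used in any result. Columns of the annotation hold the closest entry of each database, and names here come from NR. Gene positions are those of the deposited tables.

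Python 3.11.15 with pandas 2.3.3 and numpy 2.4.6 was used for the tables, intervals came from scipy 1.17.1 and figures from matplotlib 3.10.9. TMM factors came from edgeR 4.0.16 and median-of-ratios factors from DESeq2 1.42.0 in R 4.3.3; neither package was used for a test, since there was 1 library per tissue. Folds use TMM-scaled counts, 3 counts in place of 0, and genes with at least 10 counts in 1 library of the pair, with 95% exact binomial intervals that cover counting error only. PCR copies are not independent molecules. Total counts per library set the precision. Every gene of the rule with at least 10 counts is given with its 3 values, the others by count and range. From the marker lists (gastric surface mucous, gastric gland mucous, gastric chief and parietal, goblet, enterocyte, salivary gland, pancreatic acinar, hepatocyte, smooth muscle) and the mucin assembly list, the genes of highest FPKM and defining genes at 0 are named, and some others were named after their values were seen. Likeness takes the 5 nearest genes. The members and lists were chosen with earlier results of these data known, and list genes were matched by NR product name after matching by symbol was seen to bring in paralogs. On simulated data for small intestine against liver over 17271 genes, the rule recovered 100% of 200 genes changed 4-fold and called 336 others. The simulated counts had counting error only, around means shared by the libraries, and genes with few counts were not among those changed. Recovery of genes with few counts, or under variation between animals, was therefore not tested.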

Additional observations from a re-analysis of the deposited data

How the results depend on the processing

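No paired analysis was possible because each tissue had 1 library. Under 9 alternatives, the counts of members called stayed within 1.5 times, with these exceptions. As FPKM ratios with a pseudocount of 1, 3 members were lower in the small intestine than in the salivary gland library, 1 lower in the small intestine than in the liver and 1 lower in the salivary glands than in the liver. With no filter on low counts, 11 were higher in the salivary glands than in the liver. With at least 10 counts in both libraries, an alternative chosen after seeing the data, the counts higher and lower were 3 and 2, 2 and 1, and 1 and 1, since fewer genes entered. Expressed members numbered 8, 3 and 0 above 5 FPKM, and in the liver library 4 above 0.5 and 6 with at least 10 counts. Their share of counts was 0.278%, 2.47% and 0.00369%. By Swiss-Prot product names 8 members were found in place of 24; the cause was not tested. Of 230 alternative values for 46 single folds 218 kept their call, 9 fell below the threshold, 3 passed it and 0 reversed. Those that passed it included MUC5B between small intestine and salivary glands, with -1.21 under library size only, which moved the median of all genes to -0.47. MUC13, MUC4 and the MUC16-like gene fell below it as FPKM ratios with a pseudocount of 1, for the small intestine over each of the other libraries. For the salivary glands over the liver, gene897 (0.07) and Manis_javanica_newGene_8563 (-0.51) did so too. With a pseudocount of 0.1, gene897 also fell below it, at 0.51. Matched by symbol in place of product name, the mucin assembly list held 58 genes, 31 of them shared, and the enterocyte list 20, 4 of them expressed in the small intestine library. Levels from under 10 counts, as for MUC4 in the small intestine library and for GKN1 or MUC6 outside their highest library, are limited by depth.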

Other observations

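The 9 genes that hold the text "mucin-" inside the name of another protein had their own patterns. PARM1, a prostate androgen-regulated mucin-like protein, had 6.16 FPKM in small intestine, 17.2 in salivary glands and 0.602 in liver, and CD164L2 had 6.25, 2.69 and 0. The 7 genes of EGF-like module-containing mucin-like hormone receptors, which are leukocyte adhesion receptors, were read mostly in the liver library. The EMR1-like gene, a macrophage marker, led them with 0.249, 1.13 and 17.8 from 8, 40 and 901 counts, and each of the other 6 was highest in the liver library too. The EMR3-like genes had 0.274 FPKM in small intestine, 0.0606 in salivary glands and 2.50 in liver (gene6081) and 0, 0.941 and 2.71 (gene26601). The EMR2-like genes had 0.130, 0 and 1.20 (gene21288), 0.359, 0 and 2.42 (Manis_javanica_newGene_12820) and 0.0749, 0 and 0.507 (gene26778). The EMR4-like gene had 0.115, 0.0599 and 0.400. These 6 rest on 13 to 63 counts in the liver library.

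The gene without annotation that stood among those nearest to the submaxillary mucin-like gene, gene21524, had 78.4 FPKM in small intestine, 36170 in salivary glands and 1.43 in liver, from 566, 348286 and 22 counts. Its identifier directly precedes that of gene21525, the annotated submaxillary mucin-like gene that was not analysed here. Whether the counts of gene21524 belong to that mucin was not tested.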
